A study of Mus musculus with 16 samples.

Results

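The 44 genes described here mark macrophages and other leukocytes, and they were examined in the gastrocnemius muscle of HSALR mice and of FVB/N control mice. They were taken by gene symbol from a list of known markers, out of 24454 genes in the table of read counts. HSALR mice (homozygous line LR20b) carry a human skeletal actin transgene with an expanded CTG repeat and are a model of myotonic dystrophy type 1. The actin promoter of the transgene drives it in skeletal muscle. All mice were 3 months old and on the FVB/N background. Poly(A) RNA-seq libraries were made from 3 FVB/N and 5 HSALR mice given vehicle, and from 3 FVB/N and 5 HSALR mice given AICAR, an activator of the kinase AMPK, at 500 mg/kg for 7 days. Each library came from the muscle of 1 mouse. The libraries held 64890014 to 81987726 counts (median 73021286). Levels are given as CPM, counts scaled to the size of the library, after TMM scaling, and the summed level of 8 muscle fibre genes was 131550 to 186430 CPM, as in a sample that is mostly muscle.

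Skeletal muscle holds resident macrophages, which depend on signalling through the receptor encoded by *Csf1r*, clear debris with scavenger receptors and lysosomal enzymes, and secrete complement C1q. Monocytes that carry the receptor encoded by *Ccr2* follow the chemokine encoded by *Ccl2* into injured muscle and can become macrophages there, while neutrophils bring the calcium-binding proteins S100A8 and S100A9. Cells that present antigen display peptides on MHC class II molecules, which several interferons can raise. In RNA from a whole muscle, a change in the number of cells of one type and a change in the RNA made per cell cannot be told apart.

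The promoters of these genes were searched for 2 short sequences. PU.1, the protein encoded by the member *Spi1*, binds sites with a GGAA core, and MHC class II promoters carry a Y box that is bound by NF-Y. RefSeq promoter windows (build GRCm38.p6, from 250 bases before to 50 after the start of a transcript) were found for 31 of the 44 genes, with 35 windows in all. GAGGAA on either strand was in 18 of the 35 windows (51.4%) and in 28.3% of all 32851 windows of the table. GATTGG on either strand was in 7 of the 35 and in 16.1% of all windows. Neither 6-letter motif can overlap the other by more than 2 letters, and a match describes the letters only. The class II genes *H2-Aa* and *H2-Eb1* are shown because class II genes varied widely between mice of one group, and *Cd68*, *Mrc1*, *Cd53* and *Fcgr1* because each passed the test in 1 comparison. *Ms4a7* and *S100a8* also had GAGGAA in a window and passed in 1 comparison, and they are not shown. Each line gives 100 bases upstream of the start, read 5′ to 3′ on the strand of the gene, with GATTGG (*H2-Aa*, *H2-Eb1*) or GAGGAA (the others), or its reverse complement, in capitals.
H2-Aa, chr17:34287824-34287923, minus strand: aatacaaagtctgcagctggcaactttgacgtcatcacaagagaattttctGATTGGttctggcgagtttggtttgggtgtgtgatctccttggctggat
H2-Eb1, chr17:34305767-34305866, plus strand: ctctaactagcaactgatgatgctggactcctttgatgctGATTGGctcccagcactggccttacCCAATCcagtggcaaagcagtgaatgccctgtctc
Cd68, chr11:69666321-69666420, minus strand: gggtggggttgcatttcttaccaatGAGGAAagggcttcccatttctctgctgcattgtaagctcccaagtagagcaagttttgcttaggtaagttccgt
Mrc1, chr2:14229314-14229413, plus strand: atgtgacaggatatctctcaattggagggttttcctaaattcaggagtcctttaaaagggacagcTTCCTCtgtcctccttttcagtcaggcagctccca
Cd53, chr3:106790150-106790249, minus strand: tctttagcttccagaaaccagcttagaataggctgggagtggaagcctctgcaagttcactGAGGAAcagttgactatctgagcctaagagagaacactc
Fcgr1, chr3:96293972-96294071, minus strand: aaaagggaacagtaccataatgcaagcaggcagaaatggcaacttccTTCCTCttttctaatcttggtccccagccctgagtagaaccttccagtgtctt
In these stretches the match nearest the start began 49 bases before it in *H2-Aa*, 35 in *H2-Eb1* and *Mrc1*, 39 in *Cd53*, 55 in *Fcgr1* and 225 in *Cd68*.

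The levels of the 44 genes covered a wide range. On the scale per length of the gene (RPKM, mean of the 16 libraries), *Lyz2*, which encodes lysozyme of macrophages and neutrophils, stood first at 79.3, followed by the class II genes *Cd74* (35.1) and *H2-Aa* (25.8) and by the C1q chain gene *C1qa* (20.7). *Csf1r* was at 9.43, the mannose receptor gene *Mrc1* at 6.82 and *Cd68* at 6.47. At the low end were the T cell genes *Cd4* (0.109), *Cd3e* (0.0579) and *Cd8a* (0.00593), the integrin gene *Itgax* (0.133) and the Fc receptor gene *Fcgr1* (0.205). *Cd8a* had 0 to 9 counts per library and was removed by the filter on low counts, so that 43 of the 44 genes were tested. *Lyz1* and *Lyz2* are neighbouring and nearly identical genes, and reads that fit both could have been counted for either.

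A few libraries stood above the others of their group over most of the list. Replicate S446 of the FVB/N mice given vehicle was the highest of its 3 libraries for 35 of the 44 genes, with a median ratio of 1.41 to the mean of the other libraries. Replicate S458 was the highest of the 5 vehicle-treated HSALR libraries for 35 genes (1.49), and replicate S455 the highest of the 5 AICAR-treated HSALR libraries for 37 genes (1.55). The summed level of the 44 genes was 599 CPM in S446 against 365 and 368 in the other libraries of its group, 662 in S458 against 396 to 514, and 714 in S455 against 432 to 499. Red cell genes (5 genes) summed to 3122 CPM in S446 and 2832 in S458 and to 589.5 in S455, where the other 13 libraries had 273 to 1612. Mast cell genes (5 genes) were also highest in S446 (69.5 CPM) and S458 (61.8), with 29.6 in S455. Genes of the epidermis were detected as well. *Krt14*, a keratin gene of the basal epidermis, was above 1 CPM in 6 libraries, namely 1 of the FVB/N vehicle group (S450), 1 of the FVB/N AICAR group (S448) and 4 of the HSALR vehicle group (S452, S453, S458 and S459). Scores of epidermal and of red cell genes were each added to the model as covariates, and the calls that were lost with them are given beside the results. The epidermal score was higher in every vehicle than in every treated HSALR mouse. A fit with it can therefore hardly separate the score from AICAR in HSALR mice.

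**Figure D1:**
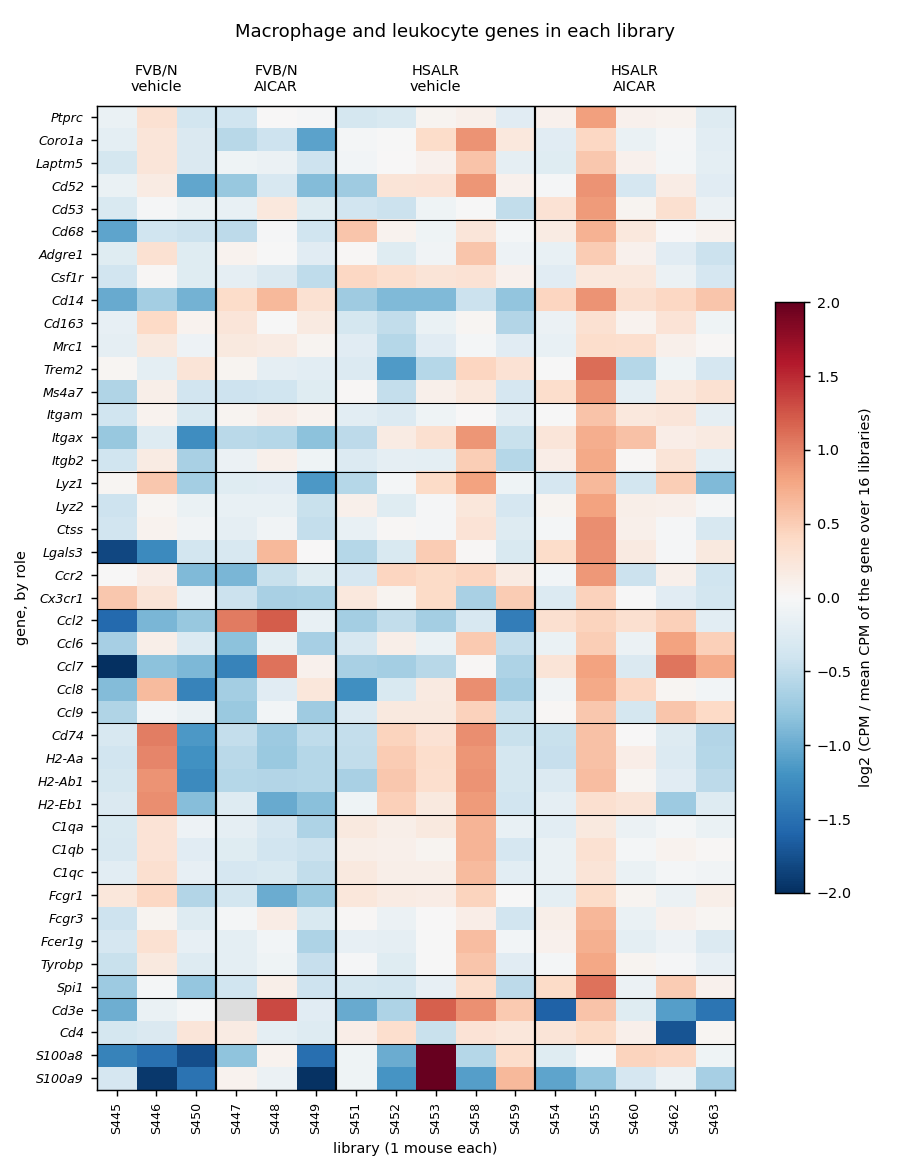
Level of 43 of the 44 genes (rows, grouped by role) in the 16 libraries (columns, grouped by genotype and treatment), as log2 of the CPM over the mean CPM of that gene (colour, cut off at 2 in both directions; grey, no count; *Cd8a* is left out). Replicates S446, S458 and S455 are red over most rows of their group, S453 stands out for *S100a8* and *S100a9*, and *Cd14* is blue in all vehicle libraries and red in all AICAR libraries.

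Few of the 43 tested genes differed between the genotypes or after AICAR, and their share was below that of all genes tested in each of the 4 comparisons. Several of them had low counts, and they varied between mice (median SD within groups 0.351 on the log2 scale, 42 genes), which makes a call less likely. Whether this lowered the share was not tested. A gene passed at an adjusted p under 0.05, from edgeR quasi-likelihood fits adjusted (Benjamini-Hochberg) over the 15487 genes tested. The comparisons share groups of mice, so that their results are not independent of each other. Since the labels do not say which mice were littermates or were killed together, the p-values measure the spread between these mice.

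After vehicle, 4 of the 43 genes were higher in HSALR than in FVB/N mice and none was lower (9.30% of the tested members), where 26.9% of all genes differed (15.4% higher, 11.5% lower). These 4 were *Cd68*, *Csf1r*, *S100a8* and *Lgals3*. The same number, 4 of 43, were higher without overlap between the groups and none lower, where 29.7% of all genes did not overlap (16.8% higher, 13.0% lower). The median log2 difference over the 43 genes was 0.20, beside 0.01 over all genes, and 37 of the 43 were above 0, where 51.1% of all genes were. Without replicate S445 of the FVB/N vehicle group none of the 4 passed and *Cd163* alone was called, as lower, and without replicate S450 of that group 2 passed (*Cd68*, *Lgals3*). After AICAR, 5 of the 43 genes were higher in HSALR mice and none was lower (11.6%, with 21.8% of all genes, 12.2% higher and 9.64% lower), namely *Itgax*, *Ccl6*, *Fcgr1*, *Ms4a7* and *Ccl9*. Here the median was 0.40 (all genes 0.00), and 39 of the 43 were above 0, where 50.6% of all genes were. A few libraries were high over most of the list, so that these genes are not separate observations. None of the 5 passed without replicate S455, the library that was high over most of the list. The count of calls was 1 without S447 (*Fcgr1*), S449 (*Ccl2*, as lower) or S463 (*Itgax*), and 3 without S448 (*Cd68*, *Ccl6*, *Ccl9*) or S462 (*Ms4a7*, *Itgax*, *Fcgr1*). Of 8 epidermal genes 5 were lower in HSALR mice in this comparison. With an epidermal score in the model *Ms4a7* and *Fcgr1* lost their calls, and *Itgax*, *Ccl6* and *Ccl9* kept theirs. Whether epidermal RNA caused any of these differences was not tested.

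AICAR changed 6 of the 43 genes in HSALR mice (14.0%, with 26.6% of all genes, 13.7% higher and 13.0% lower): *Cd14*, *Ccl2*, *Mrc1*, *Cd53* and *Cd163* rose and *Csf1r* fell. In FVB/N mice 3 rose (6.98%, with 13.2% of all genes, 8.40% higher and 4.77% lower), namely *Cd14*, *Ccl2* and *Lgals3*, and none fell. Groups did not overlap for 2 of the 43 genes in HSALR mice, both higher (all genes 17.7%, with 10.2% higher and 7.48% lower), and for 6 in FVB/N mice, 3 higher and 3 lower (all genes 33.1%, with 18.1% higher and 15.0% lower). The median log2 change was 0.08 in HSALR and -0.09 in FVB/N mice. *Cd14* and *Ccl2* were thus called in both genotypes. The difference between the AICAR effects of the genotypes passed for none of the 43 genes, where 0.691% of all genes passed (0.207% higher, 0.484% lower). At an unadjusted p under 0.05 there were 0 of the 43 and 15% of all genes. The lowest unadjusted p was that of *Ccl2* (0.0503 in edgeR's test). DESeq2, edgeR's likelihood ratio test and limma voom called none of the 43 either.

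**Figure D2:**
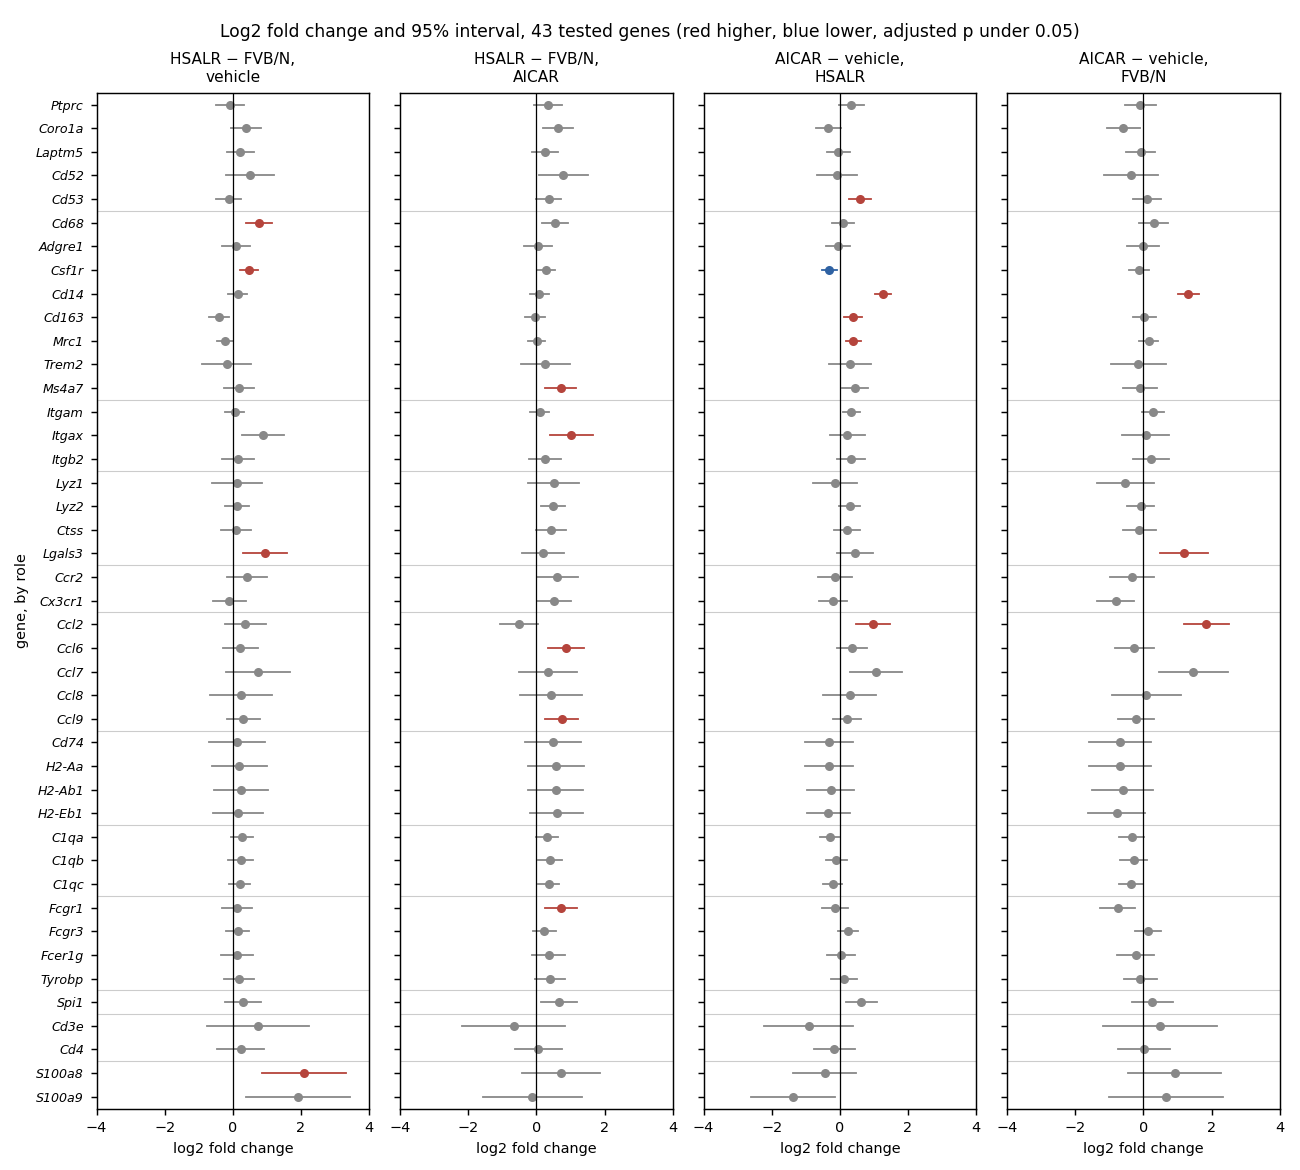
Log2 fold change (points) and 95% interval (lines) of the 43 tested genes, by role, in the 4 comparisons named above each panel. Red and blue mark genes that were higher or lower at an adjusted p under 0.05, and *Cd14* and *Ccl2* are red in both AICAR panels.

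Among the macrophage surface and receptor genes, *Cd14* rose with AICAR in both genotypes. It encodes the co-receptor that hands bacterial lipopolysaccharide to the receptor TLR4. Its level after vehicle was 3.06, 3.21 and 3.83 CPM in the 3 FVB/N mice and 3.34, 3.34, 3.56, 3.77 and 4.56 CPM in the 5 HSALR mice. After AICAR it was 7.60, 7.89 and 9.68 CPM in FVB/N and 7.65, 8.16, 8.24, 9.02 and 11.4 CPM in HSALR mice. Every treated mouse was thus above every vehicle mouse in both genotypes. The rise was 2.40-fold in HSALR (log2 1.26 ± 0.12 SE, edgeR adjusted p = 6.52e-06; exact permutation p = 0.00794, two-sided, the smallest that 5 against 5 mice allow) and 2.49-fold in FVB/N (log2 1.32 ± 0.16, edgeR adjusted p = 1.47e-04; exact permutation p = 0.1, the smallest that 3 against 3 allow). It kept its side of the threshold in each of the 30 other settings tried, in both genotypes. The genotypes did not differ detectably in *Cd14* after vehicle (log2 interval -0.14 to 0.43) or after AICAR (-0.19 to 0.36).

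*Csf1r*, which encodes the receptor for the growth factors CSF1 and IL-34 on which macrophages depend, separated the genotypes. After vehicle it was 28.8, 32.0 and 38.6 CPM in FVB/N mice and 40.2, 45.3, 46.2, 47.9 and 50.1 CPM in HSALR mice, with no overlap between the groups. It was 1.39-fold higher in HSALR mice (log2 0.47 ± 0.13 SE, edgeR adjusted p = 0.0149). AICAR brought it to 30.1, 32.3, 34.8, 43.5 and 43.6 CPM in HSALR mice and to 26.6, 30.9 and 33.5 CPM in FVB/N mice. In HSALR mice it fell by 0.32 on the log2 scale (edgeR adjusted p = 0.0468), with 2 of the 5 treated mice inside the range of the vehicle mice. This fall lost its call in 13 of 30 other settings, with an adjusted p of 0.147 with the epidermal score and 0.0528 with the red cell score in the model. After AICAR the genotypes overlapped (edgeR adjusted p = 0.135).

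*Cd68*, a glycoprotein of macrophage lysosomes, was also higher in HSALR mice. Its level after vehicle was 4.11, 6.32 and 6.46 CPM in FVB/N mice and 8.02, 8.32, 8.97, 10.1 and 12.5 CPM in HSALR mice, again without overlap. The difference was 1.70-fold (log2 0.77 ± 0.20 SE, edgeR adjusted p = 0.00942; adjusted p = 0.0617 without replicate S445, the lowest control). After AICAR the values were 5.93, 6.49 and 8.39 CPM in FVB/N and 8.55, 8.92, 9.54, 9.90 and 13.7 CPM in HSALR mice. The groups were still apart, but the adjusted p was 0.0563. *Adgre1*, which encodes the macrophage surface protein F4/80, did not follow *Cd68*: it ranged from 5.48 to 8.02 CPM in FVB/N and from 5.48 to 9.49 in HSALR mice after vehicle, with a log2 interval of -0.32 to 0.50 for the difference.

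Endothelial and mural cell genes moved the other way between the genotypes after vehicle. Of 8 endothelial genes 7 were lower in HSALR mice, with a summed level of 339 to 377 CPM in FVB/N and 231 to 289 CPM in HSALR mice, and of 6 mural genes 4 were lower (477 to 519 against 361 to 410 CPM), where 11.5% of all genes were lower. Whether a shift in the makeup of the tissue had a part in the levels of *Csf1r* and *Cd68* was not tested.

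*Mrc1* and *Cd163* encode the mannose receptor and the receptor for haemoglobin bound to haptoglobin, both of which are abundant on resident macrophages of muscle. *Mrc1* measured 31.9, 33.6 and 41.3 CPM in FVB/N and 24.2, 30.6, 30.6, 30.9 and 35.0 CPM in HSALR mice after vehicle. After AICAR it measured 37.1, 40.3 and 41.0 CPM in FVB/N and 32.5, 36.5, 38.4, 45.3 and 45.9 CPM in HSALR mice. The rise in HSALR mice was 1.31-fold (log2 0.39 ± 0.11 SE, edgeR adjusted p = 0.0146), with 1 treated mouse inside the range of the vehicle mice. *Cd163* measured 10.2, 12.1 and 15.1 CPM in FVB/N and 7.64, 8.14, 8.96, 10.5 and 11.9 CPM in HSALR mice after vehicle. After AICAR the values of *Cd163* were 11.4, 13.0 and 13.6 CPM in FVB/N and 10.5, 10.8, 12.0, 13.9 and 14.1 CPM in HSALR mice. It rose 1.30-fold in HSALR mice (log2 0.38 ± 0.13, edgeR adjusted p = 0.0455), a call lost in 15 of 30 other settings and without replicate S455 (adjusted p = 0.109). In FVB/N mice neither passed (log2 intervals -0.12 to 0.42 and -0.32 to 0.36). The 8 epidermal genes were all lower after AICAR in HSALR mice, summing to 0.612 to 187 CPM after vehicle and 0.242 to 0.371 CPM after AICAR, where 3 to 7 of the 8 were at 0 in each library. With an epidermal score in the model the adjusted p was 0.0994 for *Mrc1* and 0.234 for *Cd163*, with log2 changes of 0.39 and 0.35. Since the score separated all vehicle from all treated HSALR mice, these lost calls say little about epidermal RNA.

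In HSALR mice *Csf1r* fell and *Mrc1* and *Cd163* rose with AICAR, and their ratios within a library are given as well. They were chosen after the values were seen and are given without a test. The ratio of *Mrc1* to *Csf1r* was 1.05 to 1.11 in FVB/N mice and 0.505 to 0.767 in HSALR mice after vehicle, and 1.22 to 1.40 and 1.00 to 1.22 after AICAR. The ratio of *Cd163* to *Csf1r* was 0.355 to 0.391 and 0.170 to 0.257 after vehicle, and 0.369 to 0.488 and 0.277 to 0.400 after AICAR. In both ratios the vehicle-treated HSALR mice lay below all other mice. A ratio within a library does not depend on the sequencing depth, but it shows only that both genes changed unequally.

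**Figure D3:**
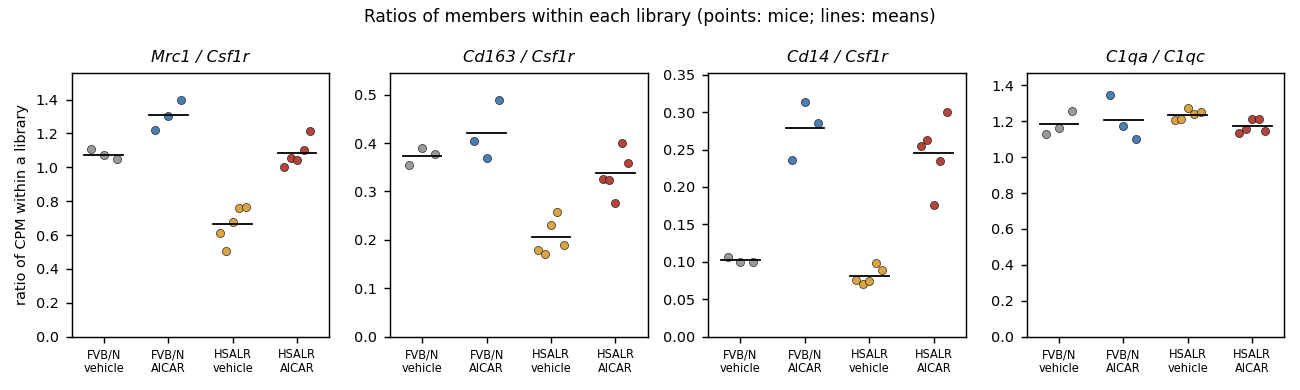
Ratio of the CPM of 2 genes within each library (y axis) for the 4 groups (x axis; points, mice; lines, means). The HSALR vehicle mice lie lowest for *Mrc1* to *Csf1r* (0.505 to 0.767) and *Cd163* to *Csf1r* (0.170 to 0.257), the AICAR groups lie highest for *Cd14* to *Csf1r*, and *C1qa* to *C1qc* stays between 1.10 and 1.35 in all mice.

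The last members of this group were low. *Ms4a7*, a gene of tissue macrophages, had 1.37, 1.37 and 1.53 CPM in FVB/N and 1.59, 2.10, 2.23, 2.32 and 3.38 CPM in HSALR mice after AICAR. These groups did not overlap, and the 1.63-fold difference (log2 0.71 ± 0.23 SE, edgeR adjusted p = 0.0394) had an adjusted p of 0.0873 without S455 and of 0.0618 with the epidermal score in the model. After vehicle the values of *Ms4a7* overlapped, with 1.19, 1.39 and 1.98 CPM in FVB/N and 1.30, 1.44, 1.84, 1.94 and 2.10 CPM in HSALR mice. *Trem2*, a lipid receptor of phagocytes, passed in no comparison (0.683 to 2.19 CPM in the AICAR-treated HSALR group, the upper value from S455).

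**Figure D4:**
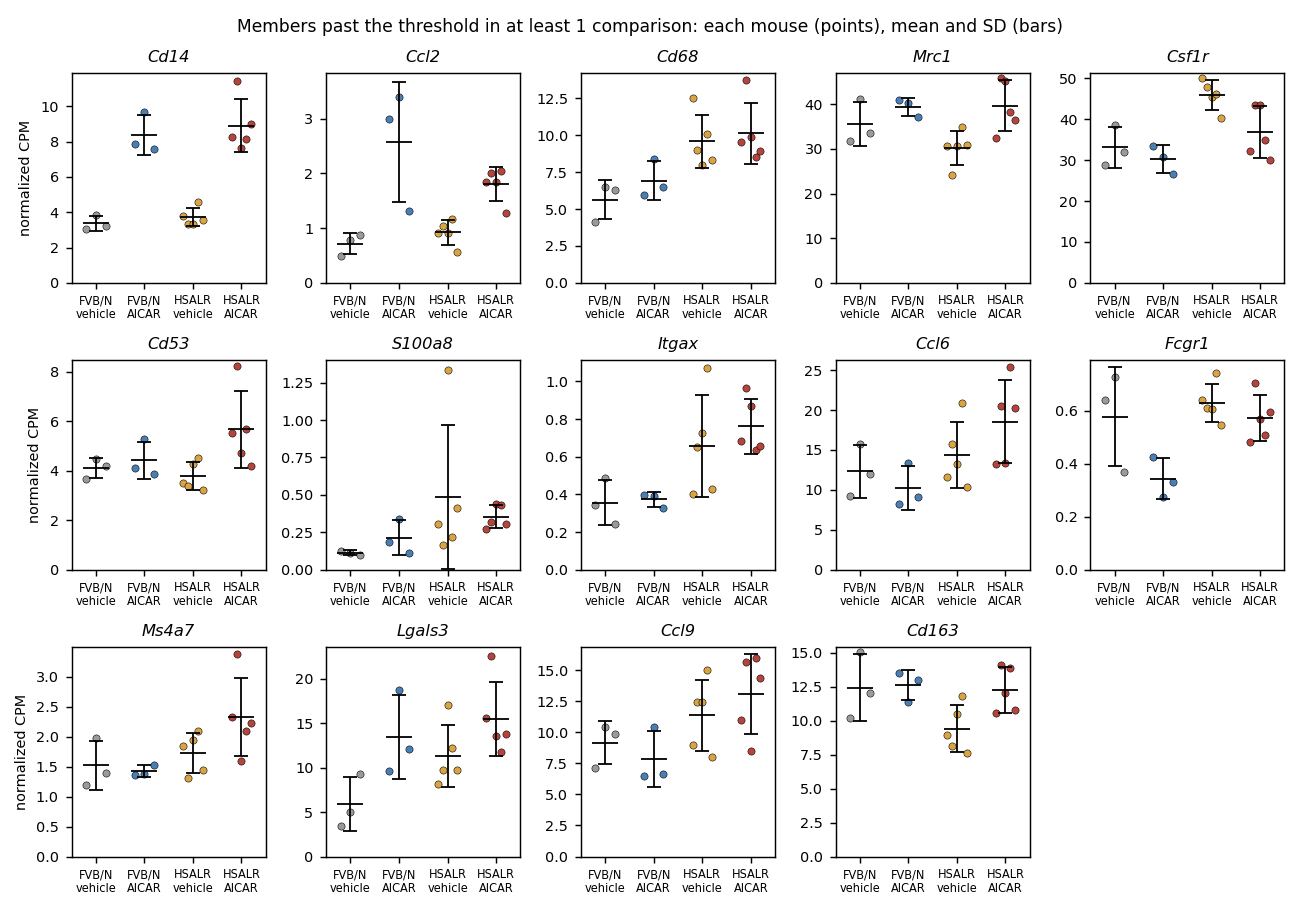
Normalized CPM (y axis, from 0) of the 14 genes that passed the threshold in at least 1 comparison, in each mouse (points) of the 4 groups (x axis), with the mean and SD (bars). *Cd14* separates treated from vehicle mice in both genotypes, and the single high points of *S100a8* and *Cd53* are replicates S453 and S455.

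Of the lysozymes and the lysosomal and lectin genes, only *Lgals3* passed the threshold. It encodes galectin-3, a lectin of macrophages that fibroblasts and regenerating fibres also make. After vehicle it was 3.40, 4.97 and 9.32 CPM in FVB/N and 8.13, 9.69, 9.74, 12.2 and 17.002 CPM in HSALR mice. After AICAR it was 9.58, 12.1 and 18.7 CPM in FVB/N and 11.8, 13.5, 13.8, 15.6 and 22.6 CPM in HSALR mice. It was 1.92-fold higher in HSALR than in FVB/N mice after vehicle (log2 0.94 ± 0.33 SE, edgeR adjusted p = 0.0447) and rose 2.28-fold with AICAR in FVB/N mice (log2 1.19 ± 0.36, edgeR adjusted p = 0.0401). Both calls were lost without S445 or S446, the 2 libraries with the lowest values, and without S445 the adjusted p was 0.198 for the genotype and 0.145 for AICAR. The first was lost in 15 and the second in 9 of 30 other settings, and with the red cell score in the model the adjusted p was 0.0797 and 0.0901. *Lgals3* in FVB/N vehicle mice was highest in S450, which also had epidermal RNA. *Lyz2* (64.4 to 88.1 CPM in FVB/N and 68.4 to 101 CPM in HSALR mice after vehicle), *Lyz1* and the protease gene *Ctss* passed in no comparison. After AICAR every HSALR mouse had more *Lyz2* (84.4 to 150 CPM) than every FVB/N mouse (63.1 to 78.0 CPM), but the adjusted p was 0.0664.

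Pan-leukocyte genes, which most kinds of white blood cell express, showed 1 call. *Cd53*, a tetraspanin gene, measured 3.24, 3.37, 3.51, 4.27 and 4.53 CPM after vehicle and 4.18, 4.72, 5.54, 5.69 and 8.22 CPM after AICAR in HSALR mice. The rise was 0.58 ± 0.16 (SE) on the log2 scale (edgeR adjusted p = 0.0157), with 1 treated mouse inside the vehicle range and an adjusted p of 0.0401 without S455. In FVB/N mice it was 3.67, 4.17 and 4.46 CPM after vehicle and 3.85, 4.12 and 5.26 CPM after AICAR (edgeR adjusted p = 0.795). *Ptprc*, which encodes the common leukocyte antigen CD45, passed in no comparison. Its log2 interval was -0.51 to 0.32 for the genotype after vehicle and -0.02 to 0.69 for AICAR in HSALR mice. *Coro1a* was higher in every HSALR than in every FVB/N mouse after AICAR (4.90 to 7.66 against 2.74 to 4.31 CPM) at an adjusted p of 0.0568. Neither *Laptm5* nor *Cd52* passed.

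Integrins of myeloid cells are encoded by *Itgam* (CD11b) and *Itgax* (CD11c) with the shared beta chain gene *Itgb2*. *Itgax*, which marks dendritic cells and some macrophages, was low, with 18 to 88 counts per library. After AICAR it was 0.329, 0.393 and 0.398 CPM in FVB/N mice and 0.638, 0.658, 0.686, 0.868 and 0.965 CPM in HSALR mice, without overlap. The difference was 2.04-fold (log2 1.03 ± 0.32 SE, edgeR adjusted p = 0.031; 0.0654 without S455). After vehicle it was 0.245, 0.341 and 0.485 CPM in FVB/N mice and 0.404, 0.426, 0.652, 0.726 and 1.07 CPM in HSALR mice. The groups overlapped, and the adjusted p was 0.0526. *Itgam* (5.44 to 6.64 CPM after vehicle and 5.78 to 9.70 CPM after AICAR in HSALR mice, edgeR adjusted p = 0.0592) and *Itgb2* did not pass.

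Chemokine ligands included the second gene that AICAR raised in both genotypes. *Ccl2* encodes the monocyte attractant MCP-1. It was 0.498, 0.778 and 0.870 CPM in FVB/N and 0.560, 0.918, 0.919, 1.05 and 1.17 CPM in HSALR mice after vehicle. It was 1.32, 3.00 and 3.39 CPM in FVB/N and 1.27, 1.84, 1.84, 2.01 and 2.04 CPM in HSALR mice after AICAR. All treated mice were above all vehicle mice of their genotype. The rise was 3.58-fold in FVB/N (log2 1.84 ± 0.33 SE, edgeR adjusted p = 0.00256) and 1.95-fold in HSALR mice (log2 0.96 ± 0.25, edgeR adjusted p = 0.0116). The difference between these effects was -0.88 on the log2 scale (SE 0.41) and did not pass (edgeR adjusted p = 0.334). *Ccl7*, its neighbour on chromosome 11 that encodes another monocyte attractant, had 0.114 to 0.344 CPM after vehicle and 0.242 to 1.30 CPM after AICAR in FVB/N mice, and 0.381 to 0.621 and 0.498 to 1.28 CPM in HSALR mice, with adjusted p of 0.0745 and 0.0549 in edgeR's test.

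*Ccl6* and *Ccl9*, neighbours on chromosome 11, encode chemokines that bind the receptor CCR1. After AICAR *Ccl6* was 8.20, 9.14 and 13.3 CPM in FVB/N and 13.2, 13.4, 20.2, 20.5 and 25.4 CPM in HSALR mice. It was 1.81-fold higher in HSALR mice (log2 0.86 ± 0.27 SE, edgeR adjusted p = 0.0328), with 1 HSALR mouse just below the highest FVB/N mouse. *Ccl9* was 6.50, 6.62 and 10.5 CPM in FVB/N and 8.51, 11.0, 14.3, 15.7 and 16.0 CPM in HSALR mice, a 1.67-fold difference (log2 0.74 ± 0.25, edgeR adjusted p = 0.044). Without S455 the adjusted p was 0.0611 for *Ccl6* and 0.0886 for *Ccl9*. After vehicle *Ccl6* was 9.20, 12.0 and 15.8 CPM in FVB/N and 10.4, 11.6, 13.2, 15.7 and 20.9 CPM in HSALR mice. *Ccl9* was then 7.17, 9.90 and 10.5 CPM in FVB/N and 7.98, 8.99, 12.4, 12.4 and 15.0 CPM in HSALR mice, and both genes overlapped between the genotypes. *Ccl8* passed in no comparison.

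The receptors for such ligands did not pass either. *Ccr2*, the receptor gene of inflammatory monocytes, was 2.66, 4.92 and 5.36 CPM in FVB/N and 3.88, 5.48, 6.36, 6.59 and 6.64 CPM in HSALR mice after vehicle. After AICAR it was 2.59, 3.59 and 4.12 CPM in FVB/N and 3.63, 3.72, 4.70, 5.23 and 8.97 CPM in HSALR mice. The highest value was that of S455. *Ccl2* thus rose with AICAR while the log2 interval for *Ccr2* was -0.98 to 0.32 in FVB/N and -0.64 to 0.36 in HSALR mice. *Cx3cr1*, the receptor gene of patrolling monocytes, was lower in every treated than in every vehicle FVB/N mouse (0.864 to 1.01 against 1.25 to 1.98 CPM) at an adjusted p of 0.0628 in edgeR's test.

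MHC class II genes varied widely among mice of one group and passed in no comparison. *Cd74*, which encodes the invariant chain that escorts class II molecules, was 22.9, 40.6 and 103 CPM in FVB/N and 36.4, 37.5, 61.9, 68.8 and 97.2 CPM in HSALR mice after vehicle. With AICAR the level was 30.6, 35.9 and 36.4 CPM in FVB/N and 33.8, 37.1, 42.3, 50.9 and 76.6 CPM in HSALR mice. All 4 groups overlapped, and 1 FVB/N vehicle mouse (S446) had the highest level of all. The SD within groups on the log2 scale was 0.631 for *Cd74*, 0.630 for *H2-Aa*, 0.629 for *H2-Ab1* and 0.550 for *H2-Eb1*, where the median over the 42 members with counts in every library was 0.351. The 3 abundant genes rose and fell as a unit. The ratio of *Cd74* to *H2-Aa* stayed between 1.64 and 1.88 in all 16 mice, and that of *H2-Aa* to *H2-Ab1* between 1.31 and 1.65, whereas *Cd74* to *C1qa* ranged from 1.07 to 3.73. The points share a library each, and the ratios are given as a description. The summed level of the 4 genes was 43.4 to 196 CPM in FVB/N and 69.4 to 187 CPM in HSALR mice after vehicle, and 60.8 to 69.6 and 67.0 to 150 CPM after AICAR. Its highest values, in S446 and S458, came with the highest red cell and mast cell levels, whose part was not tested. These genes differ in sequence between mouse strains, and reads of FVB/N mice were aligned to the mm10 reference. Whether reads were lost for this reason was not tested.

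**Figure D5:**
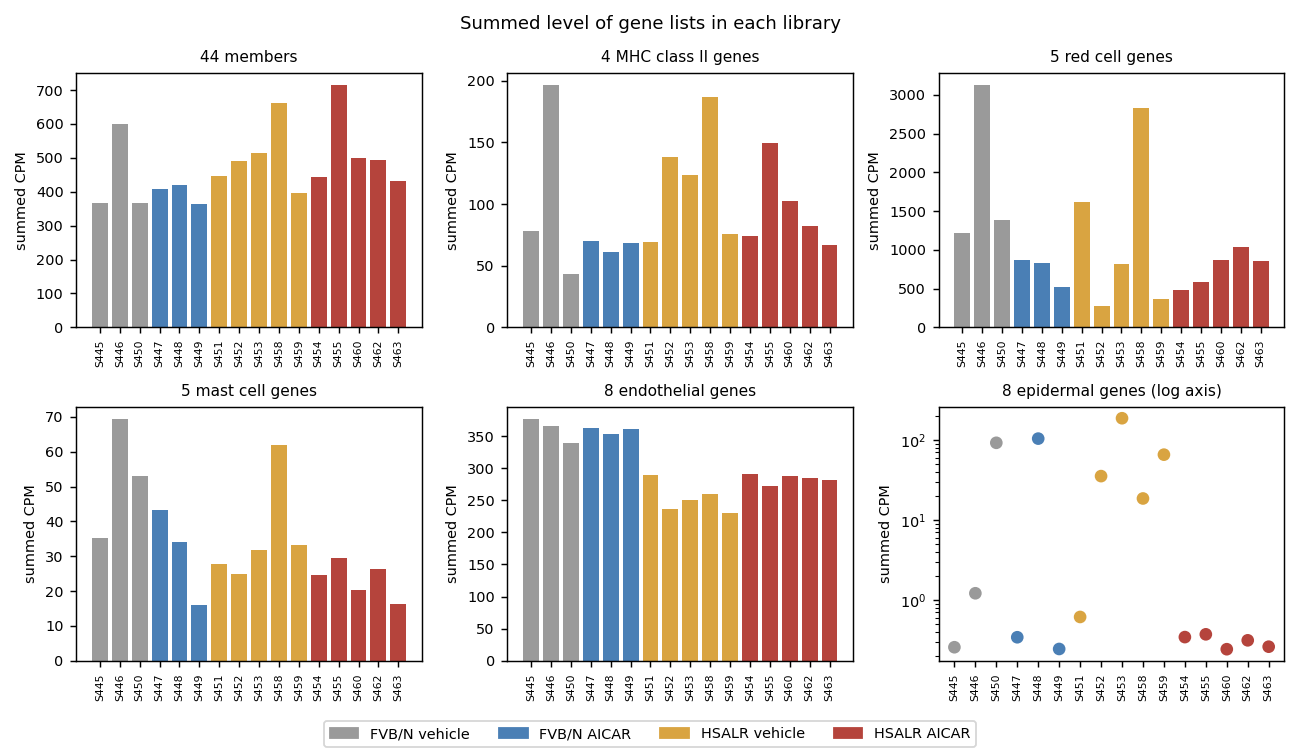
Summed CPM (y axis) of the 44 genes, of the 4 MHC class II genes among them and of genes of red cells, mast cells, endothelium and epidermis in each of the 16 libraries (x axis, coloured by group). S446, S458 and S455 are highest for the 44 genes, S446 and S458 also for red cell genes, and the epidermal genes (log axis) are above 10 CPM in 6 libraries.

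C1q is the first component of the classical complement pathway, and macrophages are its main source. *C1qa* was 18.6, 21.4 and 27.6 CPM in FVB/N and 20.7, 24.9, 26.3, 26.3 and 36.8 CPM in HSALR mice after vehicle. The AICAR groups had 14.9, 18.2 and 20.3 CPM in FVB/N and 19.8, 20.8, 21.1, 22.4 and 26.2 CPM in HSALR mice. None of the 3 chains passed in any comparison. In some other settings they did: with the red cell score in the model all 3 were higher in HSALR mice after vehicle, and *C1qb* and *C1qc* after AICAR. *C1qb* and *C1qc* were also called after AICAR with only the groups compared, and *C1qa* and *C1qc* were lower with AICAR in both genotypes with a pan-leukocyte score in the model. Their log2 differences were 0.20 to 0.26 between the genotypes after vehicle and 0.31 to 0.40 after AICAR. With AICAR the log2 changes were -0.29 to -0.11 in HSALR and -0.38 to -0.29 in FVB/N mice. *C1qb* (14.0 to 18.8 against 11.3 to 12.9 CPM) and *C1qc* (17.4 to 22.7 against 13.5 to 15.5 CPM) were higher in every HSALR than in every FVB/N mouse after AICAR, with adjusted p of 0.127 and 0.126 in edgeR's test. In all, 10 of the 43 genes were without overlap and higher in HSALR mice in this comparison, and none was lower, where 26.5% of all genes did not overlap in either direction (15.0% higher, 11.6% lower). The ratio of *C1qa* to *C1qc* lay between 1.10 and 1.35 in all 16 mice.

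Fc receptors bind antibodies and signal through adaptors encoded by *Fcer1g* and *Tyrobp*. *Fcgr1*, which encodes the high-affinity receptor for IgG, was low, with 21 to 61 counts per library. It measured 0.367, 0.640 and 0.727 CPM in FVB/N and 0.546, 0.608, 0.612, 0.640 and 0.743 CPM in HSALR mice after vehicle. After AICAR it measured 0.275, 0.329 and 0.427 CPM in FVB/N and 0.480, 0.508, 0.569, 0.596 and 0.706 CPM in HSALR mice, without overlap. The difference was 1.66-fold (log2 0.73 ± 0.24 SE, edgeR adjusted p = 0.0388; 0.0826 without S455 and 0.0719 with the epidermal score in the model). In HSALR mice the levels with and without AICAR overlapped, and the separation came with lower values in the treated FVB/N mice (log2 change with AICAR -0.75, edgeR adjusted p = 0.0709). *Fcgr3*, *Fcer1g* and *Tyrobp* passed in no comparison.

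*Spi1*, the gene of the transcription factor PU.1 of myeloid and B cells, was 1.66, 1.71 and 2.74 CPM in FVB/N and 1.96, 2.19, 2.21, 2.52 and 3.61 CPM in HSALR mice after vehicle. Treated mice had 2.12, 2.15 and 3.08 CPM in FVB/N and 2.62, 3.01, 3.69, 4.01 and 6.02 CPM in HSALR mice. The highest value was again that of S455. *Spi1* did not pass, with a log2 change of 0.63 ± 0.23 SE with AICAR in HSALR mice (edgeR adjusted p = 0.0555).

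The T cell genes of the list were low. *Cd4*, which some macrophages also express, was 0.270, 0.281 and 0.408 CPM in FVB/N and 0.252, 0.376, 0.400, 0.414 and 0.435 CPM in HSALR mice after vehicle. Under AICAR it was 0.286, 0.301 and 0.384 CPM in FVB/N and 0.104, 0.352, 0.370, 0.411 and 0.446 CPM in HSALR mice. *Cd3e*, a chain of the T cell receptor complex, had 0 to 16 counts per library, and *Cd8a* had none in 9 of the 16. The 3 genes together had 12 to 47 counts per library. Neither *Cd4* nor *Cd3e* passed in any comparison. Of 12 other genes of T and NK cells 8 were tested, and 1, the co-receptor gene *Cd28*, was lower in HSALR mice after vehicle (log2 -0.74, edgeR adjusted p = 0.0176) and after AICAR (log2 -1.02, adjusted p = 0.00347), where 11.5% and 9.64% of all genes were lower. The median log2 difference of the 8 was 0.15 after vehicle and -0.49 after AICAR. *Cd28* was also far above *Cd3d*, a T cell gene of that list (mean 6.52 against 0.0404 CPM in FVB/N vehicle mice).

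*S100a8* and *S100a9* encode the subunits of calprotectin, which is abundant in neutrophils and is also made by activated keratinocytes. *S100a8* was 0.0951, 0.115 and 0.128 CPM in FVB/N and 0.163, 0.219, 0.306, 0.413 and 1.33 CPM in HSALR mice after vehicle. With AICAR the level was 0.115, 0.185 and 0.340 CPM in FVB/N and 0.274, 0.306, 0.322, 0.430 and 0.441 CPM in HSALR mice. Every vehicle-treated HSALR mouse was above every vehicle-treated FVB/N mouse, and the difference was 4.25-fold (log2 2.09 ± 0.63 SE, edgeR adjusted p = 0.0226). The exact permutation test of the means gave p = 0.196 (two-sided). One library, S453, held 1.33 CPM, and without it the log2 difference was 1.28 (edgeR adjusted p = 0.0347). The call was lost in 7 of 29 other settings, with an adjusted p of 0.064 without S445, 0.0658 without S446, 0.078 without S450, 0.0724 by limma voom, 0.0723 with only the groups compared and 0.157 without the 6 libraries with *Krt14* above 1 CPM, a fit that has 1 HSALR vehicle mouse left (S451) and assumes that it varies like the other groups. *S100a9* did not pass (edgeR adjusted p = 0.0818) and was also highest in S453, at 1.88 CPM. S453 had the highest summed level of the 8 epidermal genes as well (187 CPM). With an epidermal score in the model the adjusted p for *S100a8* was 0.0842. S453 also stood apart for granule genes of neutrophils. *Camp*, *Ltf* and *Ngp*, which encode granule proteins, had 50, 58 and 80 counts in S453, and 0 to 4 counts in each of the other 7 vehicle libraries. Of a list of 11 other neutrophil genes, the 10 without *Mmp9* (which other cells also make and which took most of the sum elsewhere) summed to 0.421 to 0.893 CPM in the FVB/N vehicle group, to 4.05 CPM in S453 and to 0.625 to 1.23 CPM in the other 4 HSALR vehicle libraries. The 4 tested genes of that list had a median log2 difference of 0.67 between the genotypes. Of these, *Mmp9* alone was called, as lower in HSALR mice (log2 -0.70, edgeR adjusted p = 0.0493), where 11.5% of all genes were lower. Its FVB/N values were 2.38, 2.80 and 5.11 CPM, the highest of them in S446, and its HSALR values were 1.70, 2.05, 2.07, 2.30 and 2.49 CPM, so that the groups overlapped. The part of these cells was not tested.

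Further genes of macrophages and of chemokine signalling were taken from lists that hold none of the 44. Of 50 other macrophage and myeloid genes 49 were tested. In HSALR mice 11 rose and 2 fell with AICAR (13 of 49, where 26.6% of all genes changed), and in FVB/N mice 5 rose and 3 fell (8 of 49, where 13.2% changed). Between the genotypes 4 were higher in HSALR mice after vehicle and none lower (26.9% of all genes differed), and 5 were higher and 1 lower after AICAR (21.8% of all genes). *Ifi30*, which encodes a thiol reductase of lysosomes that acts in antigen processing, rose furthest among the abundant ones. It was 7.50 to 9.20 CPM in FVB/N and 6.60 to 8.60 CPM in HSALR mice after vehicle, and 127 to 227 and 111 to 145 CPM after AICAR. These were rises of 20.5-fold (edgeR adjusted p = 1.08e-08) and 18.3-fold (adjusted p = 3.87e-10). *Clec4d*, a C-type lectin receptor gene, was 0.0510 to 0.0996 and 0.0296 to 0.0974 CPM after vehicle and 0.469 to 2.05 and 0.569 to 3.16 CPM after AICAR (edgeR adjusted p = 0.00121 and 1.24e-05). *Plek*, a gene of platelets and leukocytes, rose 2.42-fold in FVB/N and 3.03-fold in HSALR mice.

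Of 30 other genes of chemokines, their receptors and cytokines 24 were tested, of which 5 rose and 3 fell with AICAR in HSALR mice (26.6% of all genes changed) and 4 rose and 2 fell in FVB/N mice (13.2%). *Ccl3* and *Ccl4*, which encode the attractants MIP-1alpha and MIP-1beta, were among those that rose in both genotypes. *Ccl3* had 0 to 2 counts in each of the 8 vehicle libraries. After AICAR it had 7, 40 and 65 counts in FVB/N mice and 5, 12, 26, 34 and 39 in HSALR mice (edgeR adjusted p = 0.00195 and 6.86e-04). *Ccl4* had 0 to 3 counts in each vehicle library, and 8, 23 and 44 in FVB/N and 2, 14, 16, 20 and 24 in HSALR mice after AICAR (adjusted p = 0.00298 and 0.00321). Between the genotypes after vehicle, 3 of these genes were higher and 2 lower in HSALR mice (26.9% of all genes differed). *Cx3cl1*, the ligand gene of the receptor encoded by *Cx3cr1*, was 3.24, 3.90 and 4.20 CPM in FVB/N and 6.60, 7.56, 9.98, 10.6 and 15.4 CPM in HSALR mice, a 2.65-fold difference (log2 1.41 ± 0.28 SE, edgeR adjusted p = 0.00169). *Il34*, which encodes a ligand of the receptor from *Csf1r*, was 1.47-fold higher (edgeR adjusted p = 0.0187). *Csf1*, the gene of the other ligand, rose 1.56-fold with AICAR in FVB/N mice (adjusted p = 0.0181).

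Among 10 other complement genes, 2 rose with AICAR in HSALR mice and none fell (13.7% of all genes rose and 13.0% fell). They were *C5ar1* (2.68-fold, edgeR adjusted p = 2.98e-04) and *C3ar1* (2.60-fold, adjusted p = 0.00138), the receptor genes for the fragments C5a and C3a on myeloid cells. In FVB/N mice none of the 10 passed (13.2% of all genes did). *C5ar1* was 2.23, 3.41 and 3.70 CPM after vehicle and 4.37, 4.90 and 7.22 CPM after AICAR in FVB/N mice (adjusted p = 0.0647), without overlap, and *C3ar1* was 3.23, 3.35 and 3.80 and 3.26, 6.53 and 8.14 CPM (adjusted p = 0.135). The difference between the AICAR effects of the genotypes passed for none of the 10. Of 20 other pan-leukocyte genes 1 rose and 1 fell with AICAR in HSALR mice (26.6% of all genes changed) and 1 rose in FVB/N mice (13.2%). Compared with FVB/N mice, 2 were higher in HSALR mice after vehicle (*Cd44* and *Hcls1*, with 15.4% of all genes higher) and 2 others after AICAR (*Lcp1* and *Ikzf1*, with 12.2%). Their summed level was 66.1 to 87.0 CPM in FVB/N and 75.1 to 94.8 CPM in HSALR mice after vehicle, and 72.0 to 84.8 and 77.7 to 105 CPM after AICAR. Of 8 tested genes of the class II pathway outside the list, 1 fell with AICAR in FVB/N mice (*Rfxank*, log2 -0.32, with 4.77% of all genes lower) and none passed in HSALR mice. The same gene was the 1 that was higher in HSALR than in FVB/N mice after AICAR (log2 0.26, with 12.2% of all genes higher).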

How the data were processed

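Poly(A) RNA from the gastrocnemius of 16 mice was sequenced in single-end reads. The authors aligned the reads to mm10 with STAR 2.5.2a, placed a read that fitted several locations at 1 of them, and deposited raw counts per gene, made with QuasR from reads starting in the exons of RefSeq genes. The library kit was stranded, and use of strand in the counting was not given in the sources used here. Overlapping genes (such as *Csf1r* and *Mir6983*, or *Mrc1* and *Mir511*) may therefore share reads.

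From these counts, genes were filtered with filterByExpr (15487 of 24454 kept) and scaled by TMM (factors 0.906 to 1.06) in edgeR 4.0.16 under R 4.3.3. A mean per group was fitted over all 16 libraries, and 5 contrasts were tested by quasi-likelihood with Benjamini-Hochberg adjustment. An SE is the log2 fold change over the root of F, and a 95% interval is its normal approximation, which is somewhat narrower than the test implies. Single genes were also tested by exact two-sided permutation of the mice. DESeq2 1.42.0, limma 3.58.1 and other scalings, filters, covariates and left-out libraries were alternatives. The script was tested on simulated counts. Of the gene IDs 24374 matched RefSeq GRCm38.p6 and 80 did not. Total counts were 64890014 to 81987726 per library, and replicates differed by far more than counting error (chi-square per degree of freedom 24 to 134), so that the spread between mice sets the precision. The values of all genes past the threshold and of 1 gene for each role without such a gene were given for every mouse. The rule for the members names genes and uses no measured value, but the members and lists were chosen with earlier results of these data known.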

Additional observations from a re-analysis of the deposited data

Results flagged for a closer look

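In 90 groups of 5 mice (the 44 genes and their summed level, in both HSALR groups), 22 had 1 library farther from the rest than Dixon's 95% limit, where chance gives about 1 in 20, or 4.5. The groups share libraries, so that these are not independent.

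Replicate S455 of the AICAR-treated HSALR mice was the high library for 12 of them. Its summed level of the 44 genes was 714.1 CPM. It held 10.7 CPM of *Ptprc*, 7.66 of *Coro1a*, 1.61 of *Cd52*, 13.7 of *Cd68* and 2.19 of *Trem2*. It held 150.2 CPM of *Lyz2*, 24.6 of *Ctss*, 22.7 of *C1qc*, 9.84 of *Fcgr3*, 5.62 of *Fcer1g* and 8.75 of *Tyrobp*. These genes belong to leukocytes in general and to macrophages.

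Replicate S458 of the vehicle-treated HSALR mice was the high library for 6, with 14.1 CPM of *Laptm5*, 9.49 of *Adgre1*, 8.93 of *Itgb2*, 0.621 of *Ccl7*, 5.26 of *Fcer1g* and 7.54 of *Tyrobp*. Replicate S453 of that group stood apart for *S100a8* (1.33 CPM) and *S100a9* (1.88 CPM). Low libraries were S463 for *Ccl2* (1.27 CPM) and S462 for *Cd4* (0.104 CPM), both of the AICAR-treated HSALR mice.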

How the results depend on the processing

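Of 18 calls of single members, 3 kept their side of the threshold in all 30 alternatives (*Cd14* in both genotypes and *Ccl2* in FVB/N mice), 7 were lost in 1 to 5 and 8 in more than 5, and 0 changed sign. The covariates for pan-leukocyte and red cell genes and the fit without the 6 libraries with *Krt14* above 1 CPM were chosen after seeing the data. The fit without the 6 libraries leaves 1 HSALR vehicle mouse (S451), 2 mice in each FVB/N group and 5 HSALR mice given AICAR, and assumes that the lone mouse varies like the other groups. Its lower counts of calls in contrasts with that group come with fewer samples and say little about the processing. The cause of the other differences was not tested.

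For HSALR against FVB/N after vehicle, 4 members were called, but 7 by DESeq2, 2 with only the groups compared, 7 with the red cell covariate, 1 without the 6 libraries and 1 to 5 when single libraries were left out. For AICAR in HSALR mice, 6 were called, but 11 with the pan-leukocyte covariate, 1 without the 6 libraries and 4 to 8 with single libraries left out. For AICAR in FVB/N mice, 3 were called, but 5 by DESeq2, 5 by the likelihood ratio test, 6 with the pan-leukocyte covariate and 2 to 4 with single libraries left out. For HSALR against FVB/N after AICAR, 5 were called, but 8 by DESeq2, 8 by the likelihood ratio test, 3 by voom, 3 with the epidermal covariate, 9 with the red cell covariate and 0 to 6 with single libraries left out.

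Over all genes, the difference between the AICAR effects had 107 calls, but 536 by DESeq2, 322 by the likelihood ratio test, 58 with the epidermal covariate, 0 without the 6 libraries and 15 to 371 with single libraries left out. AICAR in FVB/N mice had 2039, but 1164 with only the groups compared, 697 without the 6 libraries and 1143 to 2186 with single libraries left out. AICAR in HSALR mice had 4121, but 2067 with the epidermal covariate and 899 without the 6 libraries. The genotypes after vehicle had 4169, but 904 without the 6 libraries, and after AICAR 3379, with 2214 to 3790 when single libraries were left out. The share of higher genes among the calls moved from 51.3% to 30.9% for AICAR in HSALR mice with library size alone, from 63.8% to 45.1% (upper-quartile scaling) and 50.7% (library size alone) in FVB/N mice, and from 29.9% to 40.7% for the difference between them (upper-quartile scaling). In the comparisons between the genotypes, the members gained with the red cell covariate were *Itgax*, *C1qa*, *C1qb* and *C1qc* after vehicle and *Coro1a*, *Lyz2*, *C1qb* and *C1qc* after AICAR. Depth limits the genes of T cells and neutrophils, which had few counts.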

Other observations

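Complement genes outside C1q included *C3* and *Serping1*, which were lower in HSALR than in FVB/N mice after vehicle (11.5% of all genes were lower). *C3*, the gene of the central component, was 118, 170 and 208 CPM in FVB/N and 58.5, 73.1, 86.5, 96.9 and 117 CPM in HSALR mice (log2 -0.93 ± 0.21 SE, edgeR adjusted p = 0.00364). *Serping1*, the C1 inhibitor gene, had a log2 difference of -0.39 ± 0.11 SE (edgeR adjusted p = 0.0163). Of 8 genes of dendritic and Langerhans cells 3 were higher in HSALR mice after vehicle (*Flt3*, *Cd207* and *Xcr1*) and none was lower, where 15.4% of all genes were higher and 11.5% lower. Langerhans cells, which *Cd207* marks, live in the epidermis, and 4 of the 5 HSALR and 1 of the 3 FVB/N libraries of this comparison had *Krt14* above 1 CPM, whose part was not tested. Of the same 8 genes, 1 fell with AICAR in each genotype and none rose, where 13.0% of all genes fell in HSALR and 4.77% in FVB/N mice. It was *Cd209a*, a lectin gene of dendritic cells (log2 -0.59 in HSALR and -1.12 in FVB/N mice, edgeR adjusted p = 0.0174 and 0.00413). The median log2 change of the 8 was -0.06 in HSALR and -0.29 in FVB/N mice.

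Of 5 mast cell genes 1, the tryptase gene *Tpsb2*, fell with AICAR in both genotypes (log2 -1.11 in HSALR and -1.35 in FVB/N mice). Over all genes, 13.0% fell with AICAR in HSALR and 4.77% in FVB/N mice. Of 8 fibroblast genes 4 fell with AICAR in HSALR mice and 1 in FVB/N mice. Of 5 satellite cell genes 1 was higher in HSALR mice after vehicle (15.4% of all genes were), *Pax7* (log2 1.03 ± 0.22 SE, edgeR adjusted p = 0.00287).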
